A study of Oryza sativa with 6 samples.

Results

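The alpha-amylase genes of rice were followed in developing seeds of the wild type and of a line with lowered RBP-L, an RNA-binding protein. The genes were taken by locus identifier, 8 in all: Amy1A (LOC_Os02g52710), Amy1C (LOC_Os02g52700), Amy2A (LOC_Os06g49970), Amy3A (LOC_Os09g28400), Amy3B (LOC_Os09g28420), Amy3C (LOC_Os09g28430), Amy3D (LOC_Os08g36910) and Amy3E (LOC_Os08g36900). Of these, 7 were found among the 55986 loci of the expression table, and Amy3C was not analysed here. The names came with this list of identifiers, since the table gives identifiers alone. The RefSeq gene table of assembly ASM3414082v1 holds 6 of the 8 names, each on the chromosome that the locus number gives, but it does not pair them with these identifiers.

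RNA came from dehulled seeds 10 to 14 days after flowering, from plants in chambers at 27 °C on a cycle of 12 h light and 12 h dark. The wild type was the cultivar ZH11, with the 3 libraries WT-1, WT-2 and WT-3. The other group was rbpl, an RBP-L knockdown line, with the 3 libraries rbpl-1, rbpl-2 and rbpl-3; the design text calls the libraries of a group biological repeats. The labels name no other allele, transgene or agent, do not say how the knockdown was made, and do not say how many seeds or plants went into a library. With a single line set against the cultivar, lowered RBP-L and the descent of the line cannot be told apart in any comparison below.

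Alpha-amylases cut the internal alpha-1,4 bonds of starch. In cereals they are best known from germination, when the scutellum and the aleurone layer secrete them into the starchy endosperm under the control of gibberellin. The rice genes fall into the subfamilies Amy1, Amy2 and Amy3. Amy1A is known for its response to gibberellin and Amy3D for its induction by sugar starvation. In the ripening grain, where starch is being laid down, alpha-amylase activity has been linked to chalky grain.

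Library totals recovered from the steps of the values lay between 44187374 and 50714582 reads. RBP-L (LOC_Os04g53440) was lower in rbpl, with 14.4 to 15.3 RPKM (reads scaled to gene length and library depth) against 51.2 to 62.8 RPKM in the wild type, a log2 fold change of −1.86 with a standard error of 0.11 (adjusted p = 0.000159 by limma). Of the 6 libraries, WT-1 was unlike the rest. Over the tested loci (genes, not independent replicates) the log2 levels of WT-1 correlated at 0.965 and 0.966 with WT-2 and WT-3, against 0.995 between those libraries. Values without WT-1 are therefore given beside the calls.

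Among the 7 alpha-amylase genes summed here, almost all of the transcript in these seeds was Amy3E. Of the summed RPKM of the 7 genes, Amy3E made up between 93.3% (rbpl-3) and 96.4% (WT-3). Amy2A came next and Amy3B after it, in each of the 6 libraries. Amy3D and Amy1C were close to the limit of detection, and Amy1A and Amy3A had no reads. The order of Amy3E, Amy2A and Amy3B was the same in every library, and their ranges did not touch. Amy3D and Amy1C cannot be ordered by their spread, since each had a library without reads.

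**Figure D1:**
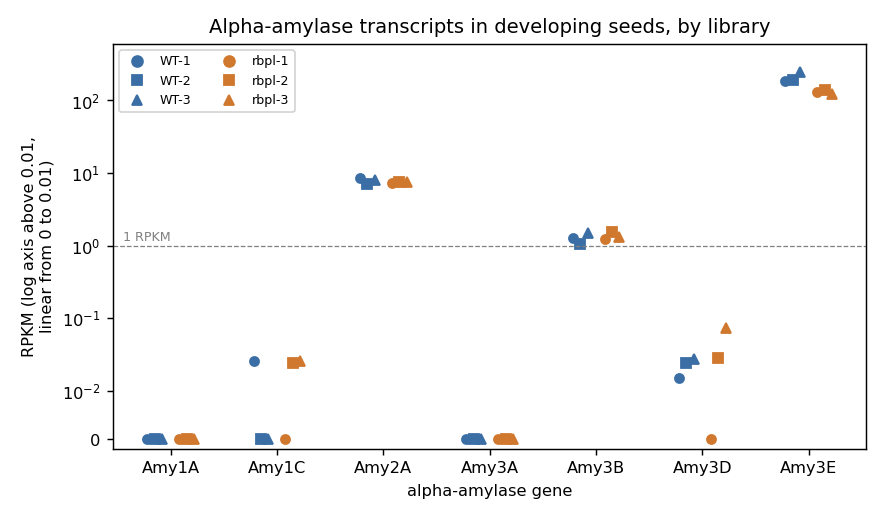
RPKM of 7 alpha-amylase genes in each library (vertical axis logarithmic above 0.01 and linear below; blue WT, orange rbpl, symbols give the replicate number, dashed line at the 1 RPKM used as filter). Amy3E lies above 100 RPKM in all 6 libraries, Amy2A and Amy3B lie between 1 and 10 RPKM, and the other 4 genes lie below 0.1 RPKM.

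Of the 3 alpha-amylase genes that passed the filter of 1 RPKM, Amy3E was the 1 called by limma, and it was lower in the knockdown. This call held in 6 of 12 alternatives, as described below. In the order WT-1, WT-2 and WT-3 the level of Amy3E was 187.9, 188.6 and 250.6 RPKM, from 16314, 15367 and 23431 reads. In the order rbpl-1, rbpl-2 and rbpl-3 it was 129.5, 139.3 and 123.4 RPKM, from 11373, 12888 and 11019 reads. Each knockdown library lay below each wild-type library, and WT-3 was the highest of the 6. Groups without overlap, in either direction, were found at 30.1% of all tested loci. The wild-type mean was 209 ± 36.0 RPKM and the rbpl mean 131 ± 8.02 RPKM (SD, n = 3 each), which is 1.60-fold lower and 62.6% of the wild-type mean.

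On the log2(RPKM + 1) scale, Amy3E fell by 0.66 with a standard error of 0.14 (adjusted p = 0.0297 by limma over 17507 tested loci). The 95% interval of the fold reached from 0.507 to 0.789 of the wild type. An exact permutation test of its RPKM, 3 libraries against 3, gave the smallest p possible, 0.1. Of the 3 alpha-amylase genes that passed the filter of 1 RPKM, 1 fell and 0 rose (limma), while 6.56% of all tested loci changed and 3.1% fell. By limma-voom on the recovered reads 1 of the 3 fell as well, beside 3.26% of all loci. With 3 genes, 1 call cannot be read as a share. In the authors' deposited table the log2 ratio of the means of Amy3E is −0.68 with an unadjusted p-value of 0.0212.

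The call depended on which libraries and loci were used. Without WT-1 the log2 fold change was −0.73 (adjusted p = 0.00152 by limma), a fit in which 18.0% of all loci changed and 9.51% fell. Without WT-3, the highest library, it was −0.52 and the adjusted p was 0.0675 by limma. Without rbpl-1, rbpl-2 or rbpl-3 the adjusted p was 0.132, 0.101 or 0.132 by limma, at log2 fold changes of −0.66, −0.71 and −0.62. The call was also lost with no filter on low loci (adjusted p = 0.0674 by limma) and with median-of-ratios scaling (log2 fold change −0.59, adjusted p = 0.0755 by limma). The fold change was below 0 in each of the 12 alternatives.

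**Figure D2:**
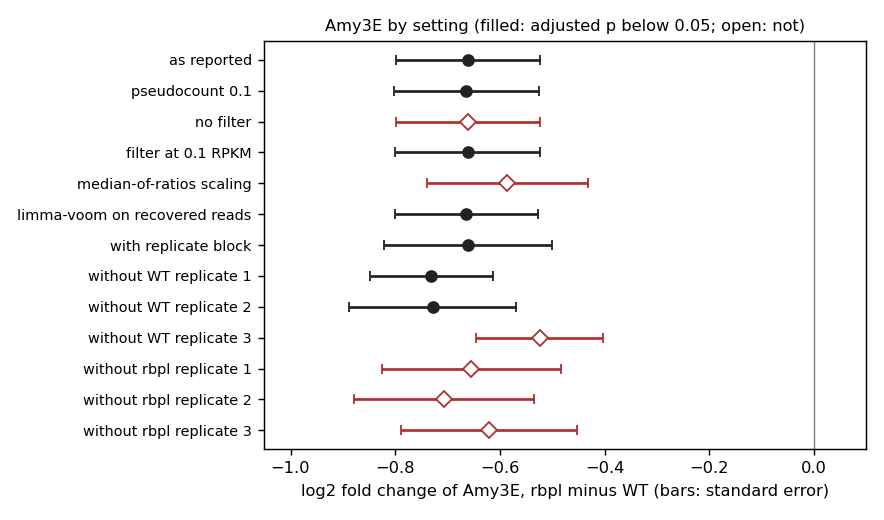
Log2 fold change of Amy3E, rbpl minus WT, with its standard error, as reported and under 12 alternatives (filled circles: adjusted p below 0.05 by limma; open diamonds: not). The values lie between −0.73 and −0.52, and 6 of the 12 alternatives have an adjusted p below 0.05.

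Amy3E was an abundant transcript. It ranked 563rd of the 17507 tested loci by mean RPKM, and between 362nd and 793rd in single libraries. Of 903 tested loci with a mean between 100 and 1000 RPKM, 19 fell by limma, Amy3E among them, and 51 rose. Over all tested loci, 472 (2.70%) had a fitted fall at least as large, called or not. The share of Amy3E in the RPKM of all loci was 0.0344 ± 0.00571% for the wild type and 0.0211 ± 0.00119% for rbpl (SD, n = 3 each). In whole seeds, fewer cells that express a gene and less transcript per cell cannot be told apart.

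Amy2A, the single member of its subfamily in rice, differed by less than the spread between libraries. In WT-1, WT-2 and WT-3 it stood at 8.56, 7.15 and 7.90 RPKM, from 800, 627 and 795 reads. In rbpl-1, rbpl-2 and rbpl-3 it stood at 7.19, 7.53 and 7.46 RPKM, from 680, 750 and 717 reads. The 3 knockdown libraries lay within the range of the wild type. The means were 7.87 ± 0.707 and 7.40 ± 0.180 RPKM (SD, n = 3 each). The fitted log2 fold change was −0.08 (standard error 0.10, adjusted p = 0.714 by limma). Its 95% interval reached from −0.31 to 0.16, so a fall as large as that fitted for Amy3E lies outside it. A fall of up to 0.31 or a rise of up to 0.16 lies within it.

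Amy3B, which lies in the Amy3 cluster of chromosome 9, was just above the filter. In WT-1, WT-2 and WT-3 it stood at 1.29, 1.04 and 1.48 RPKM, from 94, 71 and 116 reads. In rbpl-1, rbpl-2 and rbpl-3 it stood at 1.22, 1.53 and 1.30 RPKM, from 90, 119 and 97 reads. The groups overlapped, with the lowest value in WT-2 and the highest in rbpl-2. The means were 1.27 ± 0.221 and 1.35 ± 0.163 RPKM (SD, n = 3 each), and the fitted log2 fold change was 0.05 (standard error 0.12, adjusted p = 0.834 by limma). The 95% interval reached from −0.22 to 0.32 on the log2(RPKM + 1) scale, which understates the change of a gene this low.

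**Figure D3:**
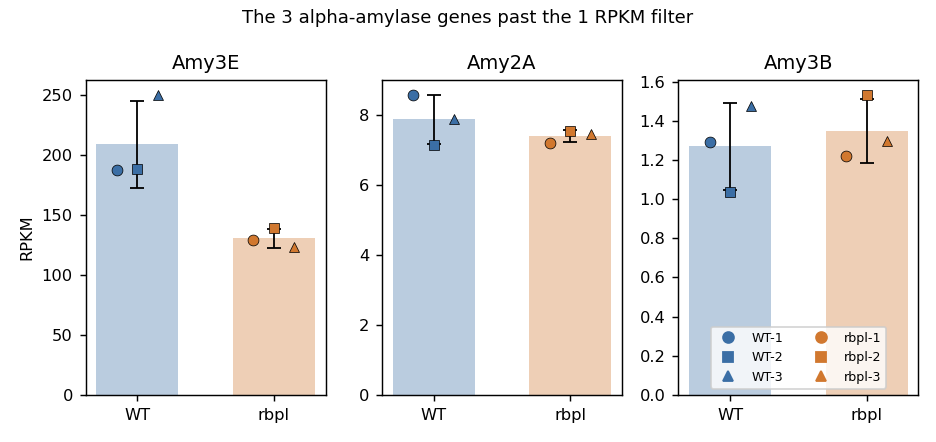
RPKM of Amy3E, Amy2A and Amy3B (each panel has its own axis from 0; bars are group means, error bars the SD of 3 libraries, symbols the libraries). Amy3E ranges from 187.9 to 250.6 in WT and from 123.4 to 139.3 in rbpl without overlap, whereas the groups overlap for Amy2A and Amy3B.

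The level of Amy3E relative to the other detected family members was lower in the knockdown. A ratio of RPKM taken within a library does not depend on how libraries are scaled to each other. These ratios were chosen after the values were seen. Amy3E stood at 22.0, 26.4 and 31.7 times Amy2A in WT-1, WT-2 and WT-3, and at 18.0, 18.5 and 16.5 times Amy2A in rbpl-1, rbpl-2 and rbpl-3. Relative to Amy3B it stood at 145.6, 181.6 and 169.5 times in the wild type and at 106.0, 90.9 and 95.3 times in rbpl, in the same order. Neither ratio overlapped between the groups, and each gave an exact permutation p of 0.1, the smallest possible. Since the RPKM of 30.1% of all tested loci did not overlap either, this alone does not set the ratios apart. The ratio of Amy2A to Amy3B overlapped, with 5.34 to 6.88 in the wild type and 4.91 to 5.89 in rbpl (exact permutation p = 0.3). Both Amy3E ratios share the same Amy3E values and are not separate evidence.

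**Figure D4:**
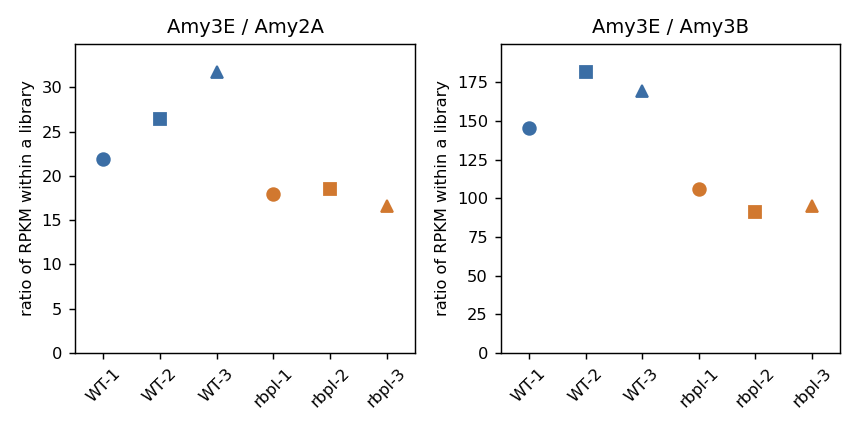
Ratio of the RPKM of Amy3E to that of Amy2A (left) and of Amy3B (right) in each library, with axes from 0. The 3 rbpl libraries lie below the 3 WT libraries in both panels, with 16.5 to 18.5 against 22.0 to 31.7 on the left.

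Amy3D, the gene of the family known for induction by sugar starvation, was barely detected. It had 2, 3 and 4 reads in WT-1, WT-2 and WT-3 and 0, 4 and 10 reads in rbpl-1, rbpl-2 and rbpl-3, which is 0.0149 to 0.0276 RPKM and 0 to 0.0723 RPKM. The groups overlapped, with both the lowest and the highest value in rbpl, and the exact permutation p was 0.7. Over each group the 9 and 14 reads give 0.0634 RPM, reads scaled to library depth alone (exact 95% Poisson interval 0.0290 to 0.120), and 0.0958 RPM (0.0524 to 0.161), intervals that overlap and cover counting error only.

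Amy1C had 2 reads in each of WT-1, rbpl-2 and rbpl-3 and 0 reads in the other 3 libraries. Its 2 reads in the wild-type group and 4 reads in the knockdown group were too few to compare. Among loci with few reads even counts were more frequent than odd ones, so some of these pairs of reads may be mates of a single fragment.

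Amy1A, the gene known for its gibberellin response, and Amy3A had 0 reads in all 6 libraries. A count of 0 allows up to 3 reads, which is 0.0592 to 0.0679 RPM in a single library. Over the wild-type and the knockdown group it is 0.0211 and 0.0205 RPM. These limits take each read as independent, and are too low where both mates of a fragment were counted. Expression of both was thus not detectable at this depth, and no fold can be given. The labels do not say how reads that match several loci were treated. The alpha-amylase genes are similar in sequence, so a part of the few reads of Amy3D and Amy1C could belong to another member. If such reads were left out, reads of Amy1A and Amy3A could be missing from the counts of 0. The levels of Amy3D, Amy1C, Amy1A and Amy3A are therefore uncertain.

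Amy3E and Amy3D lie side by side on chromosome 8, at consecutive rows of the table, and the RefSeq annotation likewise places no gene between them. Their levels were far apart. The group means of Amy3E were 209 RPKM for the wild type and 131 RPKM for rbpl, those of Amy3D 0.0221 and 0.0334 RPKM. Among the 20 rows around Amy3E, 10 on each side, 13 had a mean below 1 RPKM over the 6 libraries, of which 6 were at 0 throughout, and the highest reached 65.5 RPKM against 170 RPKM for Amy3E. Of the 20 nearest tested loci, 1 fell and 0 rose by limma, with log2 fold changes from −0.50 to 0.43. Among these neighbours 4 had an unadjusted p below 0.05 by limma, limma-voom called 0, and 4 were called without WT-1. Over all tested loci 6.56% were called, 21.6% had an unadjusted p below 0.05 and 18.0% were called without WT-1, so these counts do not set the neighbours apart.

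**Figure D5:**
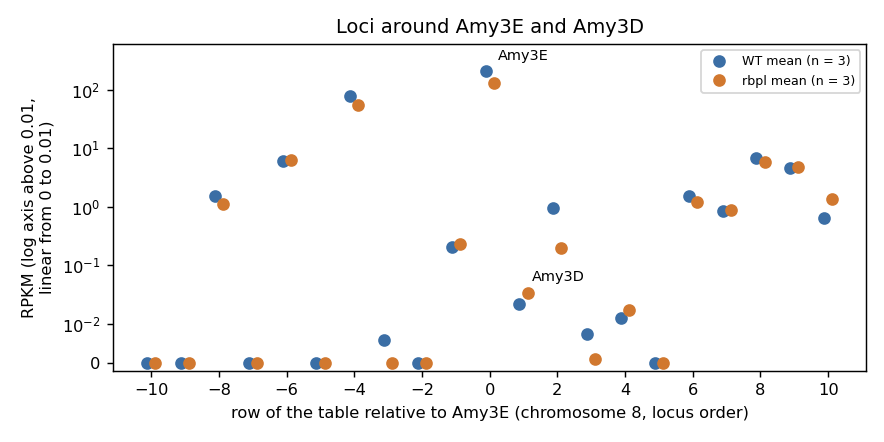
Mean RPKM of the loci around Amy3E in the order of the table (horizontal axis: rows from Amy3E; vertical axis logarithmic above 0.01 and linear below; blue WT, orange rbpl, means of 3 libraries). Amy3E is the highest point, and its neighbour Amy3D lies below 0.1 RPKM in both groups.

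The other clusters held few reads. On chromosome 2, Amy1C and Amy1A occupy consecutive rows and held 6 and 0 reads over the 6 libraries. On chromosome 9, Amy3A had 0 reads while Amy3B, which follows it in the RefSeq order, had 587. Of the 20 tested loci nearest to Amy3B, 1 rose and 1 fell by limma, and of the 20 nearest to Amy2A, 0 rose and 1 fell, with 4 at an unadjusted p below 0.05 in each set. Limma-voom called 2 and 1 of them, and 4 and 3 were called without WT-1. Set against 6.56% of all tested loci called, 21.6% at an unadjusted p below 0.05 and 18.0% called without WT-1, these sets do not stand apart.

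Other genes of starch breakdown were listed by locus number: beta-amylases, debranching enzymes, phosphorylases, disproportionating enzymes, a glucan water dikinase, an alpha-glucosidase, an alpha-amylase inhibitor and a further alpha-amylase gene. The sources used here do not pair these numbers with names, so no role is given to a single locus. Of the 18 listed, 17 had a row and 14 were tested. By limma 1 rose and 2 fell, beside 6.56% called among all tested loci. An unadjusted p below 0.05 was found for 7, beside 21.6% of all tested loci. The median log2 fold change was 0.01, against −0.04 over all tested loci. LOC_Os03g04770 rose from 20.7, 26.8 and 22.4 RPKM in the wild type to 47.7, 43.3 and 43.4 RPKM (log2 fold change 0.92, adjusted p = 0.00476 by limma). LOC_Os10g41550 fell from 38.7, 17.1 and 18.3 RPKM to 8.25, 6.89 and 7.16 RPKM (log2 fold change −1.51, adjusted p = 0.0193 by limma), with WT-1 well above WT-2 and WT-3. Without WT-1 its log2 fold change was −1.15 (adjusted p = 1.56e-05 by limma). LOC_Os04g44470 fell from 160.5, 118.7 and 147.8 RPKM to 92.8, 101.3 and 91.7 RPKM (log2 fold change −0.56, adjusted p = 0.0454 by limma). None of the 3 overlapped between the groups, as 30.1% of all tested loci did not. The call of LOC_Os03g04770 held in 12 of 12 alternatives. That of LOC_Os10g41550 held in 8, and was lost with no filter on low loci and without any 1 of the rbpl libraries. That of LOC_Os04g44470 held in 4, and was lost in both other filters, with median-of-ratios scaling, with the replicate block, without WT-3 and without any 1 of the rbpl libraries. Without WT-1, 5 loci of the list were called, where 18.0% of all loci were.

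A second list held 12 loci for regulators of alpha-amylase genes, among them the gibberellin receptor and its pathway, MYB factors that bind amylase promoters, the SnRK1 kinases of the sugar response and factors of the abscisic acid response. All 12 were tested, 0 changed by limma (0 at an unadjusted p below 0.05, 0 by limma-voom), and the smallest adjusted p was 0.250. Of all tested loci 6.56% were called by limma, and 21.6% had an unadjusted p below 0.05. With 12 loci, a count of 0 calls cannot be read as a share. The log2 fold changes of the 12 ran from −0.32 to 0.40 with a median of −0.04, the same as over all tested loci. Without WT-1, 2 of the 12 were called, again beside 18.0% of all loci.

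For the makeup of the seeds listed markers were looked at, whose numbers are likewise not paired with names here. A change in makeup and a change in the transcripts of the markers themselves cannot be told apart. The 5 loci listed for starchy endosperm summed to 21192, 13147 and 15556 RPKM in WT-1, WT-2 and WT-3. They summed to 9801, 10890 and 13076 RPKM in rbpl-1, rbpl-2 and rbpl-3, each below each wild-type sum, though rbpl-3 lay close to WT-2. The means of the 5 loci over the 6 libraries ran from 494 to 5801 RPKM, so the highest loci weighed most in the sum. Among single tested loci, 30.1% did not overlap between the groups, a share that was not worked out for sums. By limma 0 of 5 changed, beside 6.56% of all tested loci, with a smallest adjusted p of 0.0671 and log2 fold changes from −0.85 to 0.01. An unadjusted p below 0.05 by limma was found for 3 of the 5, beside 21.6% of all tested loci. Limma-voom called 0, beside 1173 of all 17507 tested loci, and 2 were called without WT-1, beside 18.0% of all loci. The 3 loci for embryo and aleurone summed to 5995 to 6699 RPKM in the wild type and 6079 to 7668 RPKM in rbpl. By limma 0 of 3 changed (0 at an unadjusted p below 0.05, 0 by limma-voom), beside 6.56% of all tested loci. With 3 loci, a count of 0 calls cannot be read as a share. The 3 loci for green pericarp summed to 1352, 2820 and 2628 RPKM in WT-1, WT-2 and WT-3. They summed to 3150, 3279 and 2789 RPKM in rbpl-1, rbpl-2 and rbpl-3, and 2 of 3 rose by limma, where 6.56% of all tested loci changed. Both calls were lost without any 1 of the rbpl libraries and 1 of them also without WT-2. Without WT-1, the lowest of the 6 sums, 2 of 3 were again called, both with a log2 fold change of 0.63, beside 18.0% of all loci. The group sums overlapped (WT-2 above rbpl-3), but most of each sum came from the locus that was not called. The 2 called loci did not overlap, as 30.1% of all tested loci did not. They ranged from 66.8 to 85.1 RPKM in WT against 129 to 131 in rbpl, and from 153 to 171 against 243 to 248. None of these 11 loci was at 0. The part of these differences in the lower level of Amy3E was not tested.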

How the data were processed

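The authors deposited a table of 55986 loci with the RPKM of each of 6 libraries, together with their group means, ratio of means, log2 ratio and unadjusted p-value, per the file headers. For the aligner, counter, genome build and annotation the entry is: not given in the sources used here. Libraries were made from total RNA with a NEBNext Ultra RNA kit, per the labels' protocols. A count-based test had been foreseen for a file of counts and was not used, because the values are RPKM.

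The RPKM of a locus moves in steps of 1 read, from which whole reads and library totals were worked out. Of 32287 loci with a value above 0, 100% gave whole reads in all libraries, within 0.0001 reads plus 1e-09 per read. The smallest whole reads that match were taken, so low counts may be too small by a common factor. Intervals and limits from reads cover counting error only and take each read as independent. Where both mates of a fragment were counted, the intervals are too narrow and the limits too low.

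Levels were compared with limma 3.58.1 under R 4.3.3 (robust, with trend, two-sided) on log2(RPKM + 1) of the 17507 loci with a mean of at least 1 RPKM in at least 1 group, without covariates, with Benjamini-Hochberg adjustment over all of them and a threshold of 0.05. On data simulated for this comparison over 17507 loci it recovered 73% of loci changed 2-fold and 90% of those changed 4-fold, of 200 changed loci in all, and called 10 unchanged loci. These folds were set on RPKM + 1, so at loci of few RPKM they stand for a larger fold of RPKM itself. The simulated noise was normal and independent between loci, with no library that stood apart as WT-1 did. These rates may therefore not hold for the measured libraries. Single values were compared by exact two-sided permutation tests, which cannot go below p = 0.1 with 3 against 3. Python 3.11.15 with scipy 1.17.1 was used for these. Loci named were the 8 members, RBP-L, the changed loci of the starch breakdown list and the loci most like Amy3E. Changed marker loci are given without identifiers, because the identifiers lack names here. For the same reason the loci most like Amy2A and Amy3B, which the rule also took, are given as counts.

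The members and lists were chosen with earlier results of these data known. Same-numbered libraries are not paired by the labels. Replicates of a group differed by more than sampling noise.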

Additional observations from a re-analysis of the deposited data

How the results depend on the processing

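Amy3E was lower in rbpl in all 12 alternatives, and its adjusted p by limma ranged from 0.00152 to 0.132. With no filter on low loci its log2 fold change was −0.66 and with median-of-ratios scaling −0.59, neither past the threshold, so that 0 alpha-amylase genes were called in each. With no filter 32287 loci were tested, and the unadjusted p of Amy3E was 0.00222 by limma, against 0.00144 as reported. With the filter at 0.1 RPKM the call held (adjusted p = 0.0341 by limma). The cause of the lost call was not tested for either setting. Leaving out 1 library gave −0.73 to −0.52 for Amy3E and 0 to 1 called members. Amy3B turned to −0.022 without WT-2 and −0.0026 without rbpl-2, and ranged up to 0.12, always far from the threshold. Amy2A kept its direction and its side of the threshold in all 12, from −0.14 to −0.01. RBP-L was called in all 12, from −1.93 to −1.79, and from −1.93 to −1.79 with 1 library left out. The count of changed loci was 1148, and 356 to 3130 with 1 library left out (3130 without WT-1, 356 without rbpl-1). With no filter 783 loci changed. Of the other starch breakdown loci 3 were called, 1 with no filter and 1 to 5 with 1 library left out, and of the regulators 0 to 2. No pairing is stated in the labels: deviations of same-numbered libraries correlated at 0.0476, 0.259 and −0.380. A fit with the replicate block called 963 loci, and Amy3E stayed past the threshold (adjusted p = 0.0454 by limma). Depth limits Amy1A, Amy1C, Amy3A and Amy3D, which had at most 10 reads in a library.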

Other observations

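Among the tested loci, the pattern of LOC_Os01g50940 over the 6 libraries was most like that of Amy3E, with Pearson's r = 0.999 on log2(RPKM + 1), followed by LOC_Os05g51780 with r = 0.991. Both were far lower than Amy3E, with wild-type means of 1.64 and 1.12 RPKM and rbpl means of 1.02 and 0.712 RPKM. An r of at least 0.95 with Amy3E was reached by 98 of the other tested loci, with Amy2A by 86 and with Amy3B by 9, so a close match over 6 libraries is not rare. The members themselves were less alike, with r = 0.47 between Amy3E and Amy2A, 0.07 between Amy3E and Amy3B and 0.41 between Amy2A and Amy3B. These values describe 6 libraries that share WT-1, which stood apart, and the group difference.

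Amy3E varied more among the wild-type libraries, with a coefficient of variation of 17.2%, than among the knockdown libraries, with 6.14%, and the same held for Amy2A with 8.99% and 2.43% and for Amy3B with 17.4% and 12.1%. Over all tested loci WT-1 correlated at 0.965 and 0.966 with WT-2 and WT-3, against 0.993 to 0.994 between the rbpl libraries. A wider spread in the wild type was thus not particular to these genes, although for Amy3E the library apart was WT-3. The difference in spread was not tested.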
